A study of Ovis aries with 12 samples.

Results

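HBZ, HBM, AHSP, HEMGN and TRIM58 were followed as 5 genes of the red cell lineage, the first 2 of them globin genes expressed from the alpha-globin locus and the other 3 genes of red cell maturation. They were chosen by name, each symbol stood for 1 of the 26247 genes of the deposited table, and all 5 were among the 14595 genes that passed the expression filter (an FPKM, the fragment count adjusted for gene length and for the size of the library, that reached 1 or more in 3 or more of the libraries). TRIM58 reached that level in 4 libraries, 3 of which were the Hulunbuir day 25 libraries, so its passing the filter rested on the group where it was highest. RNA was sequenced in bulk from sheep (Ovis aries) embryos that had been digested enzymatically into single cells. The Hulunbuir Short-tail Sheep was the experimental breed and the Ujumqin sheep the control breed, and the labels name no treatment or genetic change in either. Breed and embryo age (day 16 or day 25) define 4 groups of 3 libraries. Nothing in the labels ties a library to an animal, so the p-values reflect differences among these samples that may be technical.

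As background, the first red cells of a mammalian embryo arise in the yolk sac and later ones in the fetal liver, and the globin chains they carry change along the way. Zeta-globin is the embryonic alpha-type chain and epsilon-globin the embryonic beta-type chain; alpha-globin and, in sheep, a fetal beta chain follow. Late red cell precursors also make proteins that keep free alpha chains soluble, drive the erythroid programme and promote the loss of the nucleus.

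HBZ encodes zeta-globin and lay at chr24:133194-134250 on the plus strand of the Oar_v3.1 assembly. HBM encodes mu-globin, an alpha-type globin known in human mostly from its transcript, and lay at chr24:147873-150952, also on the plus strand. The gap between them was 13623 bases, and a further 3496 bases separated the end of HBM from the row that the table describes as hemoglobin subunit alpha-1/2. AHSP encodes a chaperone that binds free alpha-globin and lay on the same chromosome far from the globin locus, at chr24:27538896-27539425. HEMGN encodes hemogen, a nuclear protein of blood-forming cells, and lay at chr2:49440412-49451181. TRIM58 encodes a ubiquitin ligase of late erythroblasts, which in mouse cells acts on dynein and promotes enucleation, and lay at chr5:38816862-38836192. The ratio of count to FPKM gave the length by which each count had been divided. That length was 442 bases for HBZ, out of a span of 1057, but 3050 bases for HBM, nearly its whole span of 3080, so levels of HBM per length are not comparable with those of the other genes. The HBM row may also hold reads from outside the mu-globin exons, which could not be checked. Its changes below are those of the row.

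The libraries held 30464606 to 55455815 counts in total, and a count of at least 1 was found for 16794 to 17995 genes. The biological coefficient of variation, the spread between libraries of a group beyond counting error, was 43.8% in the 6 day 16 libraries and 18.1% in the 6 day 25 libraries, so breed differences were fitted within each age. Counts on mitochondrially encoded genes were 1.902% to 6.36% of a library and those on ribosomal protein genes 4.99% to 14.7%. In all 5 genes the third Ujumqin day 16 library was the highest of its group, and it is left out below where it changes a result.

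HBZ had the highest value of the 5 genes in all 12 libraries, by count as well as by FPKM. In Ujumqin day 16 embryos it was measured at 866, 706 and 3283 FPKM, and in Hulunbuir day 16 embryos at 54.8, 117 and 89.5 FPKM. The third Ujumqin library stood well above its 2 companions, and even the lowest Ujumqin library exceeded the highest Hulunbuir library. At day 25 it was at 1724, 2233 and 2128 FPKM in Ujumqin and at 14622, 17457.5 and 14928 FPKM in Hulunbuir. The day 25 groups were tight and far apart, and the order of the breeds was opposite to that at day 16. The group means were 87.1 ± 31.1 FPKM (SD, n = 3) in Hulunbuir day 16, 1618 ± 1444 in Ujumqin day 16, 2029 ± 269 in Ujumqin day 25 and 15669 ± 1556 in Hulunbuir day 25. The middle pair, both Ujumqin, overlapped.

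HBM, from the same locus, had FPKM values far below those of HBZ, divided as they are by the longer length given above. Its values were 3.09, 10.3 and 10.6 FPKM in Ujumqin day 16 and 1.58, 3.16 and 3.46 FPKM in Hulunbuir day 16. The first Ujumqin library fell inside the Hulunbuir range, so that HBM alone among the 5 genes overlapped between breeds at day 16. Day 25 values were 31.3, 33.9 and 42.1 FPKM in Ujumqin and 202, 135 and 51.8 FPKM in Hulunbuir. The Hulunbuir day 25 libraries differed from each other by 3.89 times in HBM, against 1.19 times in HBZ and 1.13 times in AHSP.

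AHSP lay below HBZ and above HEMGN and TRIM58 in FPKM in all 12 libraries. It was measured at 110, 82.3 and 411 FPKM in Ujumqin day 16 and at 5.18, 16.6 and 20.7 FPKM in Hulunbuir day 16. In Ujumqin at day 25 it was at 121, 116 and 100.5 FPKM and in Hulunbuir at 905, 1020.3 and 927 FPKM. As for HBZ, the breeds did not overlap at either age and the 2 Ujumqin ages did. HEMGN was measured at 22.2, 19.2 and 93.2 FPKM in Ujumqin day 16 and at 0.976, 0.741 and 2.42 FPKM in Hulunbuir day 16. The day 25 libraries gave 14.6, 11.5 and 10.6 FPKM in Ujumqin and 124, 112 and 123 FPKM in Hulunbuir. Every Ujumqin day 25 library lay below every Ujumqin day 16 library in HEMGN, the reverse of the order in HBM.

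TRIM58 had the lowest value of the 5 in all 12 libraries, by count as well as by FPKM. It was measured at 0.932, 0.362 and 1.92 FPKM in Ujumqin day 16 and at 0.0353, 0.0527 and 0.301 FPKM in Hulunbuir day 16, the last group resting on 12 to 85 counts per library. At day 25 it was at 0.214, 0.423 and 0.396 FPKM in Ujumqin and at 5.26, 4.89 and 5.45 FPKM in Hulunbuir.

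**Figure D1:**
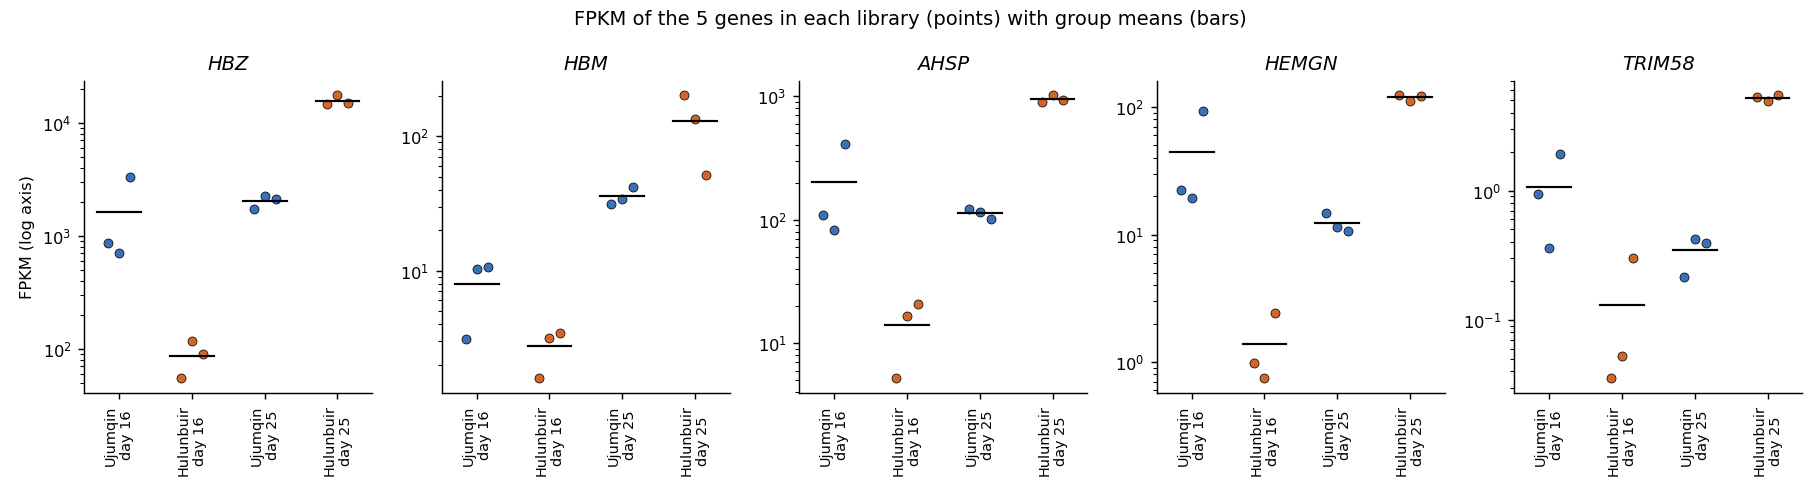
FPKM of HBZ, HBM, AHSP, HEMGN and TRIM58 in each of the 12 libraries (points, log axis, a separate scale per gene), with the mean of the 3 libraries of a group as a bar; blue is Ujumqin and orange Hulunbuir. Hulunbuir day 25 holds the highest and Hulunbuir day 16 the lowest mean in each gene, and the third Ujumqin day 16 library is the highest of its group.

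The comparison of the breeds at day 16 asks how embryos of a short-tailed breed differed from the control breed at the earlier age. Mean HBZ was 18.6 times higher in Ujumqin than in Hulunbuir on the FPKM scale, AHSP 14.2 times, HEMGN 32.5 times, TRIM58 8.27 times and HBM 2.92 times. The log2 changes (Hulunbuir minus Ujumqin, edgeR quasi-likelihood test in the 6 libraries of that age) were -4.23 ± 0.69 (SE) in HBZ, -1.61 ± 0.52 in HBM, -3.88 ± 0.77 in AHSP, -5.12 ± 0.77 in HEMGN and -3.17 ± 0.91 in TRIM58. None of them passed the threshold of 0.05 on the Benjamini-Hochberg adjusted p, which lay between 0.1004 and 0.1673. In this comparison 3 of 14595 genes (0.0206%) were called, and 2955 had an unadjusted p below 0.05. The FPKM ranges did not overlap in 4 of the 5 genes, as in 24.4% of all tested genes.

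The day 16 result depended on how the spread was estimated. With 1 spread over all 12 libraries edgeR called 4 of the 5 genes lower in Hulunbuir (16.8% of all tested genes called, 8.39% lower), all except HBM with an adjusted p of 0.0583, and DESeq2 called 5 (11.0% of tested genes called). With the replicate number as a block, since same-numbered day 16 libraries deviated together, edgeR called 2.01% of tested genes and, of the 5, HEMGN alone (log2 change -4.90 ± 0.28, adjusted p 0.0176), and the other 4 had adjusted p between 0.0526 and 0.0559. Without the third Ujumqin library the log2 change was -3.25 in HBZ (adjusted p 0.0312) and -4.07 in HEMGN (adjusted p 0.0256), both called, where 1.37% of tested genes were. In the same fit AHSP, at -2.88 (adjusted p 0.054), HBM, at -1.40 (adjusted p 0.2118), and TRIM58, at -2.50 (adjusted p 0.1755), were not called. Without the third Hulunbuir library none of the 5 was called, and the log2 change of TRIM58 was -4.45 (adjusted p 0.2288).

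At day 25 the order was reversed, and all 5 genes were higher in Hulunbuir. HBZ was higher by 2.62 ± 0.15 on the log2 scale (edgeR adjusted p 1.03e-05), AHSP by 2.75 ± 0.09 (adjusted p 9.14e-07) and HEMGN by 2.97 ± 0.10 (adjusted p 9.14e-07). TRIM58, the scarcest, differed most, by 3.57 ± 0.25 (adjusted p 2.80e-05), and HBM least, by 1.52 ± 0.40 (adjusted p 0.0146). These were 5 of 5 genes called, where 46.0% of all tested genes were called and 23.3% were called higher. TRIM58 is counted among them although its passing the filter rested on the Hulunbuir day 25 libraries, the higher group here. No range overlapped in the 5 genes, as in 62.3% of tested genes. On the FPKM scale the median gene itself stood 0.29 (log2) higher in Hulunbuir at this age, whereas the log2 changes of the count fit are relative to a median gene at 0.03. The call of HBM was lost in the 12-library fit (adjusted p 0.0736, with 16.7% of tested genes called and 7.88% called higher), with limma's voom (adjusted p 0.0670) and without the first Hulunbuir library (log2 change 1.06, adjusted p 0.0520).

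From day 16 to day 25 the 5 genes went different ways in Ujumqin embryos. HBM rose by 2.31 ± 0.54 on the log2 scale (edgeR over 12 libraries, adjusted p 0.00301) and HEMGN fell by 1.70 ± 0.51 (adjusted p 0.0130). HBZ changed by 0.51 ± 0.49 (adjusted p 0.3755), AHSP by -0.66 ± 0.54 (adjusted p 0.2974) and TRIM58 by -1.45 ± 0.66 (adjusted p 0.0749), none of them called. The 95% intervals of these 3 were -0.56 to 1.58, -1.84 to 0.52 and -2.90 to 0.00. Thus 2 of 5 genes were called, where 63.6% of all tested genes were (30.7% higher and 32.9% lower), and 2 of 5 had ranges that did not overlap, against 67.9%. Without the third day 16 library HBZ was called higher at day 25 (log2 change 1.48, adjusted p 0.00284), AHSP turned to 0.33 (adjusted p 0.484) and HEMGN lost its call (-0.66, adjusted p 0.0700). In that fit 62.2% of tested genes were called. HBM lost its call with voom (adjusted p 0.0628). TRIM58 was called lower at day 25 with DESeq2 (adjusted p 0.0440) and voom (0.0480), and without the second Ujumqin (0.0254) or the third Hulunbuir (0.0251) day 16 library, but not in the other 7 settings or the other 10 fits that left out a library.

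In Hulunbuir embryos all 5 genes rose between the same ages. HBZ rose by 7.30 ± 0.64 on the log2 scale (edgeR adjusted p 2.65e-05), which was 180 times in mean FPKM. HBM rose by 5.40 ± 0.62 (adjusted p 0.000111), AHSP by 5.92 ± 0.66 (adjusted p 9.83e-05), HEMGN by 6.34 ± 0.63 (adjusted p 5.28e-05) and TRIM58 by 5.23 ± 0.77 (adjusted p 0.000448). The rise of TRIM58 is toward the day 25 libraries through which it passed the filter, so its call is not independent of that choice. Of all tested genes 40.5% were called and 18.9% were called higher, and the ranges of all 5 genes were apart, as in 55.0% of tested genes. All 105 values recomputed for these genes under the alternatives kept the direction and the call. Because the tissue was sequenced in bulk, fewer cells of a type and less RNA per cell cannot be told apart, here or in the other comparisons.

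**Figure D2:**
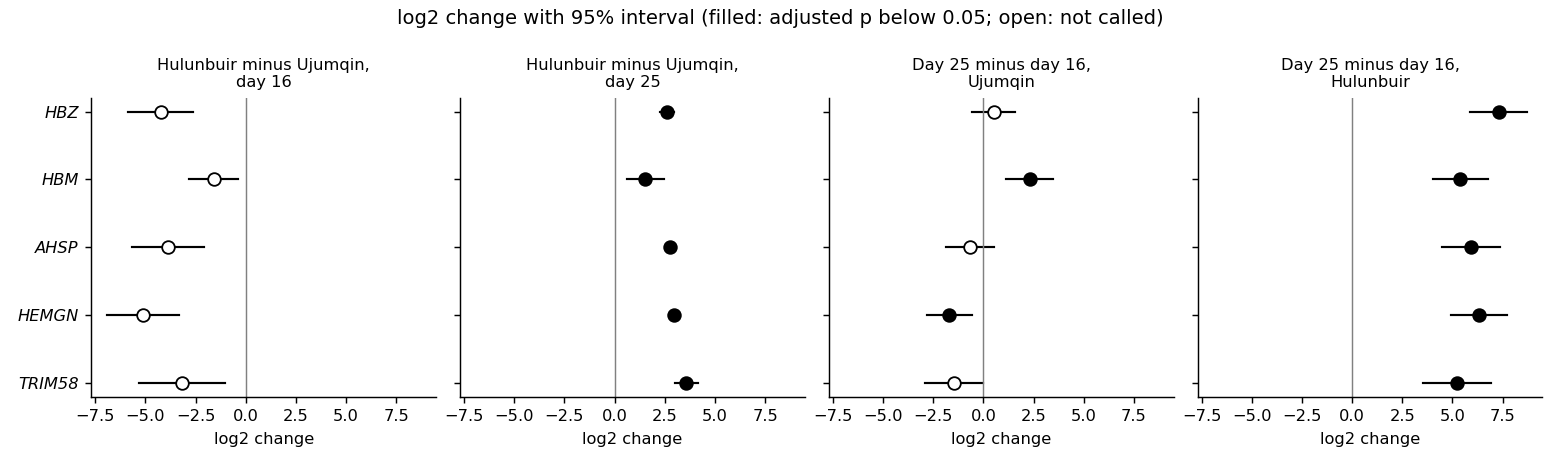
log2 change of each of the 5 genes in the 4 comparisons between groups (points) with its 95% interval (lines), from the edgeR fits; filled points had an adjusted p below 0.05. All day 16 breed differences are negative and open, all day 25 breed differences positive and filled, and HBM and HEMGN are filled on opposite sides of 0 for age in Ujumqin.

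The breed difference itself changed between the ages in each of the 5 genes. The interaction, the log2 breed difference at day 25 minus that at day 16, was 6.79 ± 0.75 in HBZ (edgeR over 12 libraries, adjusted p 0.000556), 6.58 ± 0.83 in AHSP (0.00102), 8.04 ± 0.80 in HEMGN (0.000366) and 6.68 ± 1.002 in TRIM58 (0.00209). In HBM it was 3.09 ± 0.74 (adjusted p 0.0165), a value whose call voom did not give (adjusted p 0.3145). All 5 were called, where 19.2% of tested genes were called and 8.89% were called in this direction. For TRIM58 the same limit holds, as it passed the filter through the Hulunbuir day 25 libraries. The interaction is built from the same libraries as the 4 comparisons above and adds no samples to them.

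A ratio of genes within 1 library takes out the scaling between libraries, apart from the 0.1 FPKM added before taking logs, which weighs on the scarce TRIM58. The other 4 genes were therefore also set against HBZ in the same library. AHSP stood at 12.3% ± 0.5 (SD, n = 3) of HBZ FPKM in Ujumqin day 16 and at 15.6% ± 6.9 in Hulunbuir day 16, but at 5.65% ± 1.22 and 6.08% ± 0.21 in the same breeds at day 25. The mean log2 ratio was lower by 1.21 at day 25 (exact permutation test of age labels within breed, two-sided, p = 0.005, the smallest that 400 arrangements can give; adjusted p 0.0133 over 8 tests). HEMGN stood at 2.71% ± 0.14 of HBZ in Ujumqin and 1.70% ± 1.03 in Hulunbuir at day 16, and at 0.622% ± 0.198 and 0.773% ± 0.113 at day 25. Its log2 ratio was lower by 1.60 at day 25 (exact permutation p = 0.015, adjusted p 0.0300), and with no pseudocount it was lower by 1.54 and not called (adjusted p 0.0533). TRIM58 stood at 0.0725% ± 0.0307 and 0.149% ± 0.163 of HBZ at day 16 and at 0.0167% ± 0.0037 and 0.0335% ± 0.0047 at day 25, in Ujumqin and Hulunbuir. Its log2 ratio was lower by 2.35 at day 25 (exact permutation p = 0.005, adjusted p 0.0133). The mean ratios of all 3 genes of red cell maturation to zeta-globin were lower at the later age in both breeds. In HEMGN the ages overlapped in Hulunbuir, where the lowest day 16 library stood at 0.634% and the day 25 libraries at 0.643% to 0.849%.

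HBM relative to HBZ was not separated by age (difference in mean log2 ratio -0.26, exact permutation p = 0.73). At day 16 it stood at 0.711% ± 0.644 of HBZ in Ujumqin and 3.15% ± 0.63 in Hulunbuir, and at day 25 at 1.77% ± 0.23 and 0.834% ± 0.519, so that the breeds stood in opposite order at the 2 ages. Between breeds, averaged over ages, the ratio to HBZ was not separated in HBM (0.62, exact permutation p = 0.42), AHSP (0.19, p = 0.39) or HEMGN (-0.22, p = 0.655), with adjusted p from 0.56 to 0.73. In TRIM58 it was higher in Hulunbuir by 1.15 (exact permutation p = 0.005, adjusted p 0.0133), but this call rested on the added 0.1 FPKM. With no pseudocount the difference was 0.78 (adjusted p 0.26) and with 1 FPKM added it was 1.17 (adjusted p 0.22).

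**Figure D3:**
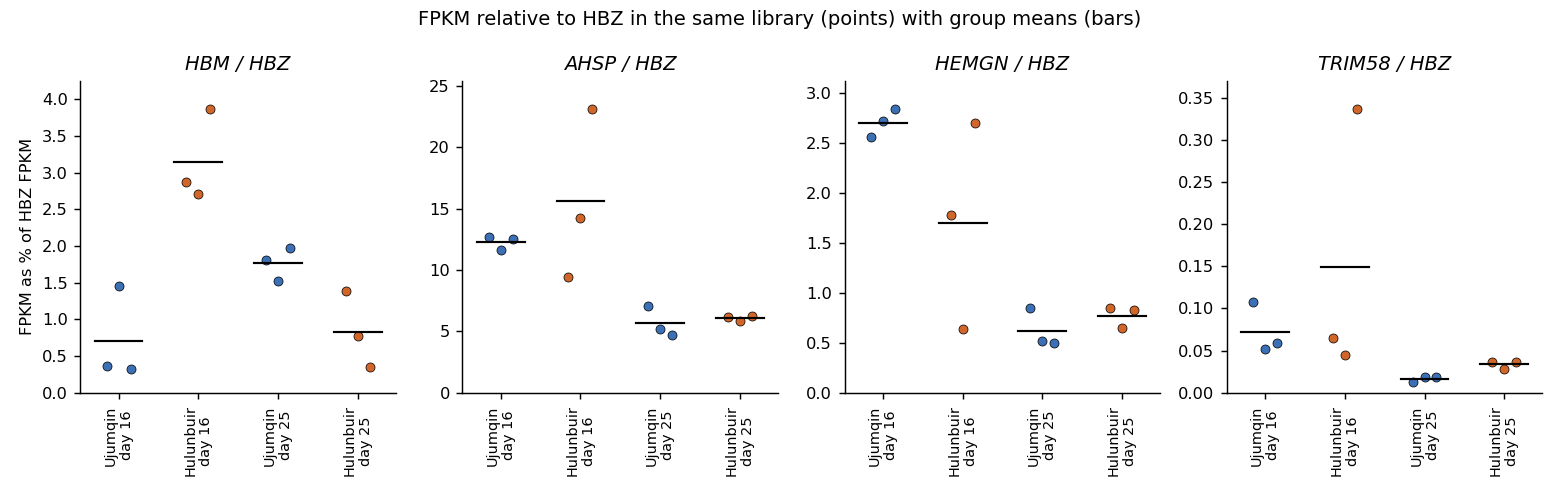
FPKM of HBM, AHSP, HEMGN and TRIM58 as a percentage of HBZ FPKM in the same library (points, linear axes from 0), with group means as bars; blue is Ujumqin and orange Hulunbuir. AHSP lies between 9.45% and 23.1% at day 16 and between 4.72% and 7.03% at day 25, while HBM has its highest mean in Hulunbuir day 16.

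The other globins were found through the table's own descriptions, a choice made after the table was seen, and reads of near-identical globin copies may have been split between rows. The alpha-1/2 globin row, at chr24:154448-155145, stood close to HBZ in all 12 libraries, with HBZ between 0.809 and 1.71 times its FPKM. HBZ made up 43.4% to 61.0% of the summed FPKM of the 4 alpha-type rows (zeta, mu, alpha-1/2 and theta 1) with the ages overlapping. Alpha-1/2 globin was higher in Hulunbuir at day 25 (log2 change 2.10 ± 0.09, edgeR adjusted p 2.76e-06) and rose with age in Hulunbuir (7.09 ± 0.51, adjusted p 7.01e-06). In Ujumqin it changed by 0.92 ± 0.39 with age (adjusted p 0.0587), not called.

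Among the beta-type chains the embryonic and the later chain exchanged places between the ages, while zeta and alpha-1/2 stayed side by side. Epsilon-2 globin, an embryonic beta-type chain, was at 1034, 1103 and 4426 FPKM in Ujumqin day 16 and at 6.22, 6.91 and 0.907 FPKM in Ujumqin day 25. It fell by 8.71 ± 1.07 on the log2 scale in Ujumqin (edgeR adjusted p 4.58e-05). In Hulunbuir it was at 24.7, 43.0 and 172 FPKM at day 16 and at 27.8, 28.1 and 28.1 FPKM at day 25, a change of -1.57 ± 0.78 that was not called (adjusted p 0.1296); the breed by age interaction of this gene was called (7.13 ± 1.2, adjusted p 0.00362). The fetal beta chain was at 28.8, 21.5 and 118 FPKM in Ujumqin day 16 and at 378, 269 and 268 FPKM in Ujumqin day 25. It rose by 2.62 ± 0.64 in Ujumqin (adjusted p 0.00396). In Hulunbuir it went from 3.57, 0.654 and 4.93 FPKM to 1100.2, 1127 and 1167 FPKM in the 3 libraries of each age, a rise of 8.45 ± 0.83 (adjusted p 4.78e-05). Epsilon-2 globin exceeded fetal beta globin in all 6 day 16 libraries, by 6.91 to 65.8 times, and fetal beta exceeded epsilon-2 in all 6 day 25 libraries, by 38.9 to 296 times.

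The balance of alpha-type to beta-type chains moved with age as well. Summed FPKM of alpha-type rows was 1.17 to 1.62 times that of the 4 beta-type rows in Ujumqin day 16 and 1.17 to 4.36 times in Hulunbuir day 16. At day 25 it was 9.76 to 16.0 times in Ujumqin and 22.6 to 24.4 times in Hulunbuir. These sums are given as a description, with no test, and they depend on the lengths by which counts were divided. Those were 442 bases for HBZ and 468 for alpha-1/2, but 2084 for epsilon-2 and 1220 for fetal beta. By count the order in Ujumqin day 16 was the other way. Epsilon-2 held 105554 to 500704 counts per library there, against 15642 to 78791 for HBZ and 14120 to 57483 for alpha-1/2. In Hulunbuir day 16 epsilon-2 also exceeded each of these rows by count in each library. It held 2592 to 15855 counts, against 1222 to 2203 for HBZ and 1088 to 2298 for alpha-1/2. AHSP, the chaperone of free alpha chains, stood at 4.96% to 10.01% of the alpha-type sum at day 16 and at 2.35% to 3.54% at day 25.

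**Figure D4:**
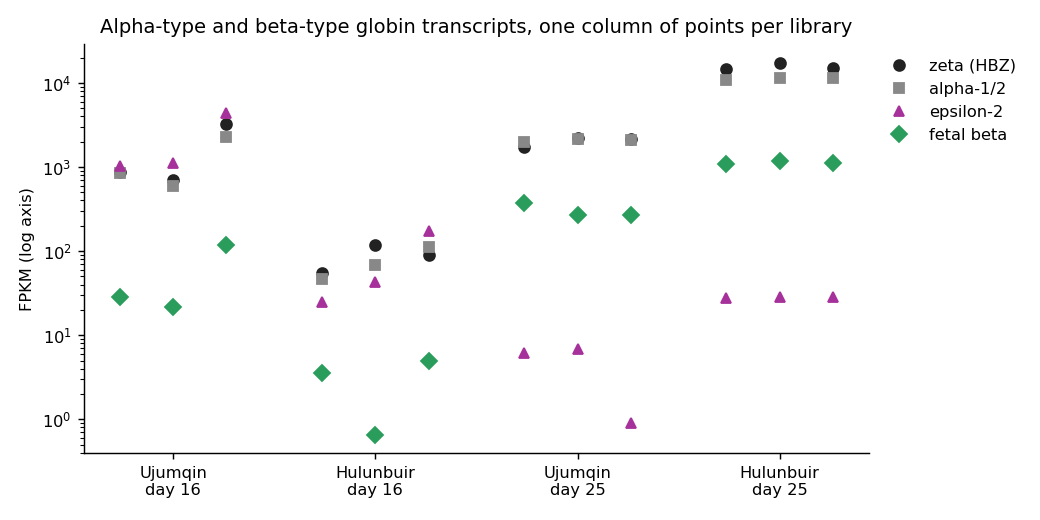
FPKM of zeta-globin (HBZ), alpha-1/2, epsilon-2 and fetal beta globin in each of the 12 libraries (log axis; 1 column of points per library, libraries in replicate order within a group). Zeta and alpha-1/2 lie close together in all 12 libraries, epsilon-2 lies above fetal beta in the 6 day 16 libraries, and fetal beta lies above epsilon-2 in the 6 day 25 libraries.

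The wider red cell programme was described by lists of genes with the same roles; where few genes of a list went one way, most are named although some were picked out after their values were seen. At day 25, all 13 tested heme synthesis genes were called higher in Hulunbuir, with a list median of 1.71 (log2) beside 0.03 over all tested genes. Of all tested genes 23.3% were called higher at this age in the within-age fit. ALAS2, the first enzyme of heme synthesis in red cells, was at 368 ± 5 FPKM (SD, n = 3) in Hulunbuir and 39.9 ± 2.9 in Ujumqin (2.88 ± 0.10, edgeR adjusted p 9.14e-07). Of 16 erythroid transcription factors 14 were called higher, led among those counted in both breeds by KLF1, an activator of globin genes, with 47.4 ± 1.9 against 3.41 ± 0.90 FPKM (3.46 ± 0.21, adjusted p 1.40e-05). The 1 factor called lower was BCL11A (-0.36, adjusted p 0.00596), which in human and mouse silences embryonic and fetal beta-type globin genes. Of 18 membrane and skeleton genes 15 were called higher and 1, the water channel AQP1, lower (-0.80), with SPTB, the red cell beta-spectrin, at 52.0 ± 1.0 against 6.21 ± 0.83 FPKM (2.74 ± 0.09, adjusted p 9.14e-07). GYPC, glycophorin C, was at 65.3 ± 3.2 and 49.9 ± 7.1 FPKM and was not called (0.05 ± 0.14, adjusted p 0.791).

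Of 19 other genes of late red cell maturation, 14 were called higher at day 25 and 0 lower by edgeR, with a list median of 0.80. PKLR, the red cell and liver pyruvate kinase, was at 101 ± 2 FPKM in Hulunbuir and 12.8 ± 1.0 in Ujumqin (2.65 ± 0.07, adjusted p 4.45e-07). Of 11 receptors and iron uptake genes 9 were called higher and 1, PIM1, lower (-0.69), with TFR2, transferrin receptor 2, at 97.3 ± 2.7 against 10.8 ± 1.5 FPKM (2.84 ± 0.11, adjusted p 1.27e-06). The 11 tested neighbours of the alpha-globin locus were called in both directions, 3 higher (POLR3K, NPRL3 and PDIA2) and 3 lower (SNRNP25, RHBDF1 and LUC7L), with a list median of -0.05. Of all tested genes 23.3% were called higher, a share near that of these neighbours. The largest difference toward Hulunbuir was in NPRL3, whose introns hold the alpha-globin enhancers in human and mouse (20.0 ± 0.4 against 6.41 ± 1.36 FPKM, 1.32 ± 0.13, adjusted p 0.000132). With the 12-library fit 10 heme synthesis genes, 8 factors, 15 membrane genes, 10 late maturation genes and 8 receptor and iron genes were called higher, beside 7.88% of all tested genes.

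At day 16 edgeR called 0 genes of these lists in either direction in the 6-library fit. All 13 heme synthesis genes were below 0 (list median -1.12, beside 0.01 over all tested genes), as were 14 of 16 factors (-0.76), 15 of 18 membrane genes (-1.78), 15 of 19 late maturation genes (-0.63) and 9 of 11 receptor and iron genes (-0.90). GATA1, the central erythroid transcription factor, was at 2.86 ± 1.23 FPKM in Hulunbuir and 30.3 ± 16.4 in Ujumqin (-3.44 ± 0.52, edgeR adjusted p 0.1004). With the 12-library fit 9 heme synthesis genes, 5 factors, 11 membrane genes, 9 late maturation genes and 4 receptor and iron genes were called lower, beside 8.39% of all tested genes. The same fit called 1 factor and 1 receptor and iron gene higher. Without the third Ujumqin library the within-age fit called 1 factor, 1 heme synthesis gene and 2 late maturation genes lower, beside 1.37% of all tested genes called in either direction.

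With age in Ujumqin, 6 of 13 heme synthesis genes were called lower and 1 (PPOX) higher, 7 of 16 factors lower and 1 higher, 8 of 18 membrane genes lower and 4 (SLC14A1, GYPC, KEL and EPB42) higher, 9 of 19 late maturation genes lower, and 9 of 11 receptor and iron genes lower and 0 higher by edgeR, beside 32.9% of all tested genes lower and 30.7% higher. Without the third Ujumqin day 16 library, an alternative added after the data were seen, 3 heme synthesis genes, 3 factors, 6 membrane genes, 9 late maturation genes and 8 receptor and iron genes were called lower, and 3 of the 5 other globins were called higher in place of 1. In that fit 1 heme synthesis gene, 1 factor, 4 membrane genes and 2 receptor and iron genes (CISH and EPOR) were called higher. The list medians without that library and with it were 0.02 and -0.20 in heme synthesis genes, -0.35 and -0.79 in factors, -0.61 and -1.36 in membrane genes, -0.71 and -0.69 in late maturation genes and -1.14 and -1.22 in receptor and iron genes. The 1 factor that rose was BCL11A, from 0.6002 ± 0.477 to 17.2 ± 1.3 FPKM (4.98 ± 0.50, adjusted p 1.33e-05). In Hulunbuir 12 of 13 heme synthesis genes rose, as did 8 of 16 factors with 0 lower, 13 of 18 membrane genes with 2 lower (AQP1 and SLC2A1) and 10 of 19 late maturation genes with 3 lower (UBE2H, UBE2O and XPO7). Of all tested genes 18.9% were called higher with age in Hulunbuir. BCL11A rose there too, from 0.363 ± 0.231 to 16.8 ± 0.4 FPKM (5.40 ± 0.52, adjusted p 4.27e-05). Which cells of the embryo held the BCL11A transcripts, and whether they had a part in the globin changes, was not tested. KLF1 rose in Hulunbuir from 1.02 ± 0.77 to 47.4 ± 1.9 FPKM (5.37 ± 0.72, adjusted p 0.00026). Of the receptor and iron genes 4 rose (CISH, STEAP3, TFR2 and EPOR) and 3 fell (KIT, PIM1 and SLC11A2) in Hulunbuir. EPOR, the erythropoietin receptor, rose from 2.68 ± 1.58 to 42.8 ± 2.3 FPKM (3.78 ± 0.50, adjusted p 0.000232), and TFRC, the transferrin receptor, was at 17.7 ± 5.0 and 14.7 ± 0.8 FPKM (-0.40 ± 0.18, adjusted p 0.1017). In the interaction 11 of 13 heme synthesis genes, 11 of 16 factors, 14 of 18 membrane genes, 12 of 19 late maturation genes and 7 of 11 receptor and iron genes were called in the direction of the 5 genes, and 0 in the other by edgeR. Of all tested genes 8.89% were called in the direction of the 5 genes. This was not particular to red cell lists. Of the markers described below, 13 of 19 of yolk sac endoderm and liver were called in that direction and 0 in the other. Their list median was 3.73, beside 1.02 to 3.52 in these 5 lists. For platelet markers it was 5 of 6 and 0, for leukocyte markers 2 of 12 and 1, and for progenitor markers 1 of 7 and 1. For trophoblast markers it was 1 of 8 and 0, and for endothelial markers 0 of 11 and 4.

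**Figure D5:**
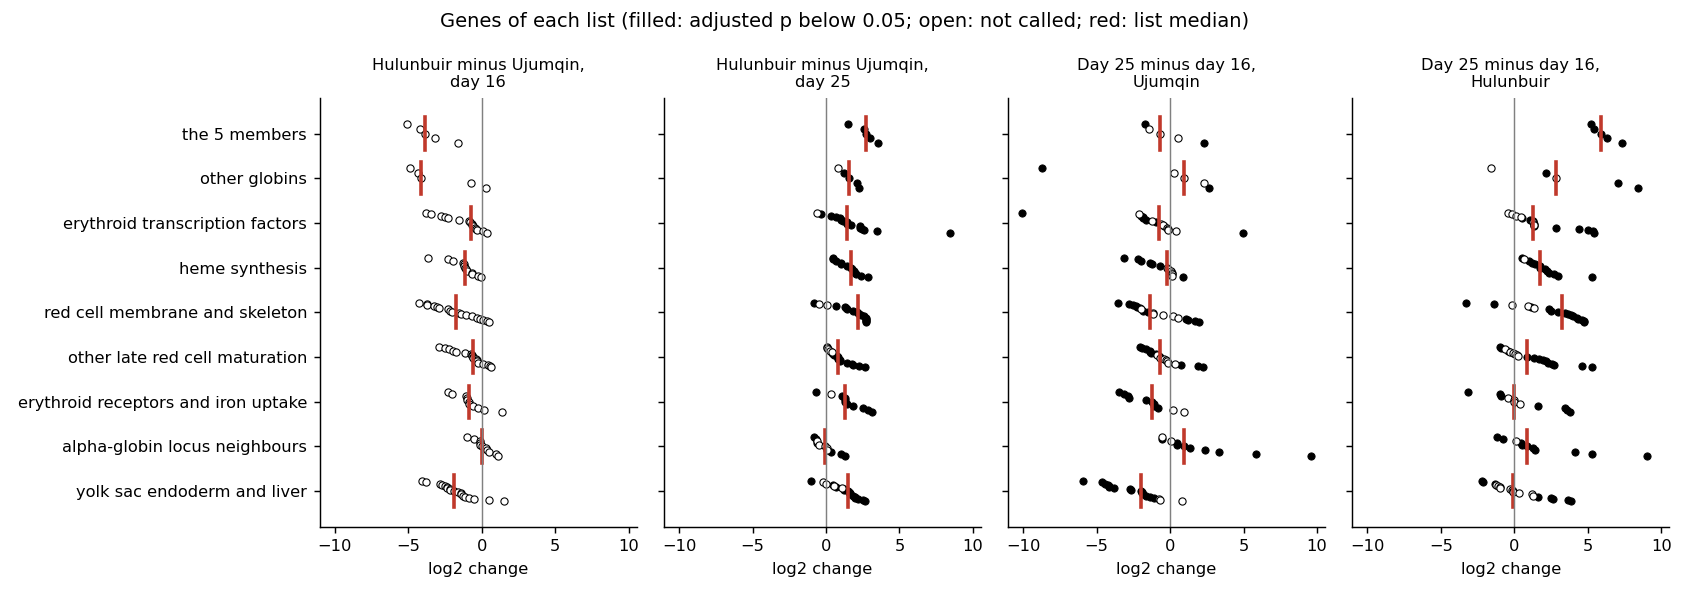
log2 change of each tested gene of 9 lists in the 4 comparisons between groups, from the edgeR fits; filled points had an adjusted p below 0.05 and red lines mark list medians. Points beyond 8 on either side, other than those of globins, belong to genes with no count in 1 group, where the fitted size depends on the prior count; the medians did not change with these genes at their bound.

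Genes with the profile nearest to each of the 5 were sought by the root mean square distance of centred log2(FPKM + 1) over the 12 libraries. AHSP and HEMGN were near each other (0.52) and shared ALAS2 as the nearest gene of both, at 0.42 from AHSP and 0.45 from HEMGN, with GATA1 among the 5 nearest of each. The gene nearest to HBZ was AHSP, at 0.69, followed by SPP2, RLN3, AMBP and FABP1. SPP2, AMBP and FABP1 are genes of liver; FABP1 was at 378 ± 16 FPKM in Hulunbuir day 25 and 3.05 ± 1.59 in Hulunbuir day 16. The nearest genes to HBM held none of the other 4 and no heme or membrane gene: they were MATN1, TTC36, C1QB, MSLN and CXCL10, at 0.53 to 0.69. MATN1, a cartilage matrix gene, was at 9.65 ± 1.76 FPKM in Ujumqin day 25 and 27.0 ± 1.5 in Hulunbuir day 25 and was listed with no count in Hulunbuir day 16. TRIM58 moved over a smaller range on this scale, 0.99 around its mean against 2.74 for HBZ, and was nearest to AGMAT, ALAD, TMEM14C, FHL2 and RELT, of which ALAD and TMEM14C belong to heme synthesis.

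The levels of markers of other tissues also differed between the groups. The summed FPKM of 19 markers of yolk sac endoderm and liver, all of them in the table and none at 0 in all libraries, was 29082 to 66189 in Ujumqin day 16 and 5499 to 17341 in Hulunbuir day 16. At day 25 it was 6669 to 10112 in Ujumqin and 21666 to 23244 in Hulunbuir. The breeds were thus in the same order as for HBZ at both ages, and the highest sum was in the third Ujumqin day 16 library. AHSG alone held a large part of the sums, with means of 20028 FPKM in Ujumqin day 16, 3802 in Hulunbuir day 16 and 10249 in Hulunbuir day 25. At day 16 the within-age fit called 0 of the 19 markers, with 17 below 0 and 2 (SOX17 and FOXA2) above. The 12-library fit called 11 lower and 1 higher, beside 8.39% of all tested genes lower. At day 25, 14 of the 19 markers were called higher in Hulunbuir and 1, RBP4, lower (list median 1.502; 6 higher in the 12-library fit), with age in Ujumqin 16 were called lower and 0 higher by edgeR (-1.995), and with age in Hulunbuir 5 were called higher (TTR, APOM, APOA2, ALB and SERPINA1) and 3 lower (HNF4A, FOXA2 and APOB; -0.11). Of all tested genes 23.3% were called higher at day 25 (7.88% in the 12-library fit), 32.9% lower with age in Ujumqin and 18.9% higher with age in Hulunbuir. The part of these tissues in the differences of the 5 genes was not tested.

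Platelet markers (9 of 13 in the table, 6 tested) summed to 29.0 to 111 FPKM in Ujumqin day 16, 13.5 to 17.6 in Hulunbuir day 16, 13.1 to 15.3 in Ujumqin day 25 and 31.8 to 36.9 in Hulunbuir day 25, an order of the breeds like that of HBZ at both ages. At day 16 all 6 were below 0 and 0 were called in the within-age fit. At day 25, 2 were called higher, GP1BA and TREML1, the latter at 15.4 FPKM in Hulunbuir against 3.17 in Ujumqin. The other 4 were not called, and VWF and SELP among them were below 0. Of all tested genes 23.3% were called higher at day 25. Macrophage and leukocyte markers (17 of 17 in the table) summed to 15.1 to 30.1, 15.3 to 25.6, 71.1 to 83.9 and 97.3 to 105 FPKM, in the order of groups used for the platelet sums. Haematopoietic progenitor markers (10 of 12) summed to 38.0 to 120 FPKM in Ujumqin day 16 and 65.0 to 97.0 in Hulunbuir day 16, and to 36.0 to 48.2 and 55.9 to 63.6 FPKM at day 25. Endothelial markers (11 of 13) summed to 156 to 302 FPKM in Ujumqin and 368 to 381 in Hulunbuir at day 16, the reverse of the order of HBZ, and to 93.2 to 115 and 117 to 121 FPKM at day 25. Trophoblast markers (8 of 14) summed to 1678 to 3689 and 1637 to 5429 FPKM at day 16 and to 279 to 520 and 337 to 370 FPKM at day 25. KRT8 made most of the day 16 sums, with means of 2139 FPKM in Ujumqin and 2907 in Hulunbuir. At day 16, 5 of the 8 (PPARG, DLX3, TFAP2C, GATA3 and ELF5) were below 0 and 3 (CDX2, KRT18 and KRT8) above, with a list median of -1.46. The within-age fit called 0 of them, and the 12-library fit called 4 lower and 0 higher, beside 8.39% of all tested genes lower. No marker found in the table was at 0 in all 12 libraries. The part of these cell types in the results was not tested.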

How the data were processed

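Bulk RNA-seq of 12 sheep embryo libraries was analysed, 3 in each of 4 groups of breed and age taken from the labels. Per the labels' protocols, TRIzol was used to extract total RNA for Illumina libraries. Per the submitters' processing notes, cutadapt 1.9, FastQC and the Oar_v3.1 genome were used; the aligner, the counting program, strand handling and the treatment of multiply mapped reads are not given in those notes, the labels or the file headers. Per the file headers, the deposited table gives a count and an FPKM per gene and library. The deposited counts are unscaled whole numbers, and the deposited FPKM is 0.0001 wherever the count is 0. All 12 libraries were mapped by name, leaving 0 sample columns over.

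The 5 genes, the 13 lists and the tests were chosen with earlier results of these data known. edgeR 4.0.16 in R 4.3.3 (TMM scaling, quasi-likelihood F test, two-sided, Benjamini-Hochberg over 14595 genes, threshold 0.05) was fitted within each age for breed and over 12 libraries for age and the interaction. Standard errors were derived from the log2 change and the root of F. FPKM are as deposited and log2 changes come from the count fit. Ratios to HBZ used log2 of FPKM plus 0.1 and exact permutation within strata. Named genes were the 5 members, per list and comparison the 2 called genes with the largest log2 change and the most abundant uncalled one, of which fewer are printed, and the 5 nearest profiles per member. Of the 202 symbols on the lists 165 were in the table. Some results of list genes are not reported here.

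Same-numbered libraries of the breeds at day 16 deviated together (r = 0.189, 0.302 and 0.356 across genes), so the block is given there. At day 25 same-numbered libraries of the breeds did so only weakly (r = 0.0545, 0.0589 and 0.0315), beside -0.0464 to -0.0113 for different numbers. Between ages the numbers did not pair. Replicates within a group correlated at 0.901 to 0.990 and differed beyond counting noise. On simulated counts with 200 genes changed, edgeR recovered 0% of 2-fold and 36% of 4-fold changes for breed at day 16 (6 of 42 calls false), 74% and 96% at day 25 (10 of 180), 21% and 70% for age in Ujumqin (11 of 102), 11% and 75% for age in Hulunbuir (14 of 100), and 3% and 45% for the interaction (6 of 54). Alternatives were DESeq2 1.42.0, limma 3.58.1 (voom, and log2 FPKM), other scalings, no filter, the block, other sets of libraries and leaving out each library.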

Additional observations from a re-analysis of the deposited data

Results flagged for a closer look

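The breed difference changed between day 16 and day 25 in each of the 5 genes by a test of the difference itself, the edgeR interaction over 12 libraries. On the log2 scale the day 25 breed difference minus the day 16 breed difference was 6.79 in HBZ, 3.09 in HBM, 6.58 in AHSP, 8.04 in HEMGN and 6.68 in TRIM58. In all 5 genes Hulunbuir had the lower mean at day 16 and the higher mean at day 25. Groups of 3 libraries were not tested for outlying libraries.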

How the results depend on the processing

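For breed at day 16, the count of the 5 genes called was 0 with edgeR in 6 libraries, 4 in the fit over 12 libraries, 1 with the replicate block, 5 with DESeq2 and 0 to 2 when 1 library was left out (2 without the third Ujumqin library). The count of all genes called there was 3, against 2459 over 12 libraries, 293 with the block, 1601 with DESeq2, 0 with voom, 0 with limma on log2(FPKM + 1) and 0 to 200 when 1 library was left out. For breed at day 25 the 12-library fit called 2440 genes in place of 6716. For the interaction 2804 genes were called, and 1561 to 3337 when 1 library was left out, with 1561 to 1656 without each of 5 day 25 libraries (all but the first of Ujumqin), while the 5 genes stayed called. The change of AHSP with age in Ujumqin ran from -1.02 to 0.33 when 1 library was left out. The difference in mean log2 ratio to HBZ between ages was -1.54 in HEMGN with no pseudocount, not called, and ran from -0.49 to 0.09 in HBM when 1 library was left out. Between breeds it was 0.098 in HEMGN with 1 FPKM added, -0.43 to 0.063 in HEMGN when 1 library was left out, and in TRIM58 0.78 with no pseudocount and 1.17 with 1 FPKM added, neither called. The cause of these changes was not tested.

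The values of single genes were recomputed in 460 cases, of which 436 kept direction and side of the threshold, 17 gained a call, 6 lost one and 1 changed sign. Replicate numbers paired the libraries of the breeds only weakly at day 25, and did not pair libraries between ages. With the replicate block 5 of the 5 genes were called for breed at day 25 (44.4% of all tested genes), 2 for age in Ujumqin (63.2%), 5 for age in Hulunbuir (40.1%) and 5 for the interaction (18.0%), the numbers found without it. Counting precision limits TRIM58 most, with 12 to 85 counts per library in Hulunbuir day 16. With 3 libraries a group and a wide day 16 spread, 2-fold changes at that age were not recovered in simulation.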
